A study of Mus musculus with 6 samples.

Results

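The RNA exosome subunits described here are the 10 genes Exosc1 to Exosc10, taken by symbol from the 55335 genes listed for each of 6 libraries of mouse 4-cell embryos. All 10 were found, and all 10 reached 1 FPKM (fragments per kilobase of transcript, scaled to a common library total) in at least 3 libraries, the minimum for testing. 3 libraries came from embryos treated with DRB, a nucleoside analogue that stops elongation by RNA polymerase II, and 3 from control embryos (Con). DRB was given at 20 µM from 6 h after fertilization and left on for 20 h, after which the embryos were washed and grown for another 26 h without it. A solvent control is not mentioned for Con, and neither strain, number of embryos per library nor separate matings are given, so the p-values rest on the spread between these libraries, which may be technical.

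The exosome degrades and trims RNA from the 3′ end in the nucleus and the cytoplasm. Its core is a ring of RNase PH-like proteins (Exosc4 to Exosc9), which in mammals do not cut RNA themselves, topped by a cap of S1 and KH domain proteins (Exosc1 to Exosc3) that guide RNA into the channel. Nucleases bound to this core do the cutting, among them Exosc10 in the nucleus, and adaptor complexes with helicases deliver the substrates. In the mouse, oocytes without Exosc10 mature poorly, and the cleavage embryo is a stage at which stored maternal RNA is cleared while new transcripts are processed.

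The libraries held an estimated 22600000 to 25700000 fragments each, so 1 fragment per kilobase was worth 0.0389 to 0.0442 FPKM, and the subunits rested on about 74.6 to 6462 fragments per kilobase in a library. Without molecular identifiers these fragments are not independent molecules. Pearson's r of log2(FPKM + 1) over the 11893 tested genes was 0.909 to 0.937 within DRB, 0.935 to 0.944 within Con and 0.869 to 0.915 between the groups. DRB replicate 1 had the lowest mean r with the other libraries, 0.891, and Con replicate 1 listed 22102 genes above 0, against 18485 to 19895 in the other 5 libraries. All 10 oocyte and 6 cleavage-embryo marker genes were above the minimum for testing, and 0 were called in limma (1 and 2 lower at an unadjusted p below 0.05). The oocyte list summed to 96.8 to 114 FPKM in DRB and 113 to 169 FPKM in Con, and the cleavage-embryo list to 1619 to 2089 FPKM in DRB and 2194 to 3736 FPKM in Con. Their part in the results on the subunits was not tested. Among 10 cumulus markers Fshr, Cyp19a1, Has2 and Ptx3 were at 0 in every library, and the summed list stood at 144 to 276 FPKM in DRB and 213 to 387 FPKM in Con, most of it Gja1. Sperm markers summed to 12.5 to 24.2 FPKM in DRB and 12.7 to 22.7 FPKM in Con, most of it Ldhc and Odf2, with Tnp2 and Smcp at 0. Blood markers summed to 59.8 to 102 FPKM in DRB and 77.5 to 123 FPKM in Con, most of it Hba-a1 and Hba-a2. Ptprc, Alas2 and Tyrobp were below 1 FPKM in every library. In libraries of whole embryos, fewer cells and less RNA per cell cannot be told apart.

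The question asked of the subunits was whether their transcripts differed at the 4-cell stage after transcription had been blocked and released. Exosc1 of the cap and Exosc4 of the ring fell in DRB embryos, to 35.1% and 29.1% of their Con means, and 0 subunits rose in limma, adjusted or at an unadjusted p below 0.05. Exosc7, the most abundant subunit, and Exosc8 also lay lower in all DRB than in all Con libraries, without passing the test, and Exosc6 lay higher. The nuclease Exosc10 stood at 32.4 ± 9.33 FPKM in DRB and 31.1 ± 8.46 FPKM in Con (SD, n = 3 per group). Called means a Benjamini-Hochberg adjusted p below 0.05 over all 11893 genes in limma, fitted on log2(FPKM + 1). Each log2 fold change is the DRB mean minus the Con mean of these log values, with limma's standard error. Of all tested genes 2.48% were called, 0.95% lower and 1.53% higher, so the 2 lower calls among 10 subunits stand beside a background of 0.95%. The split was 182 higher and 113 lower, and it was 190 and 73 with mitochondrial genes left out and 223 and 84 with median-of-ratios scaling, where 1 subunit, Exosc1, was called under each. With single libraries left out, Exosc1 was called in 1 of 6 limma fits (without DRB replicate 3) and Exosc4 in 0 of 6, with adjusted p-values of 0.0341 to 0.115 and 0.0567 to 0.187.

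In all, 8 of the 10 subunits had a negative fold change, where 56% of all tested genes did, and the median over the subunits was -0.54 against -0.09 over all tested genes. 5 subunits, Exosc1, Exosc4, Exosc5, Exosc7 and Exosc8, were lower at an unadjusted limma p below 0.05, as were 10.5% of all tested genes. In 4 of them every DRB library lay below every Con library, as in 13.9% of all genes, and in Exosc6 every DRB library lay above, as in 9.85%. The 10 subunits were chosen with earlier results of these data known, so these counts are a description and carry no test of the complex. Summed over the 10 genes, DRB replicates 1 to 3 held 475, 588 and 624 FPKM, against 881, 889.95 and 809 FPKM in Con replicates 1 to 3. The sums did not overlap. Genes of the mitochondrial genome took 23.9% to 26.4% of all FPKM in DRB and 12.2% to 20.0% in Con. How far this share moves the FPKM of other genes was not tested. The median-of-ratios scaling factors were 1.11, 0.984 and 0.899 in DRB replicates 1 to 3. In Con replicates 1 to 3 they were 1.14, 1.05 and 1.03, so the groups overlapped. With mitochondrial genes left out and each library rescaled, the sums were 561, 590.1 and 612 FPKM in DRB and 785, 845 and 842 FPKM in Con. With median-of-ratios scaling they were 429, 598 and 694 FPKM in DRB and 773, 846 and 787 FPKM in Con. The groups did not overlap under either scaling. Exosc7 and Exosc3 alone made up 52.3% to 63.8% of the sum in DRB and 52.7% to 54.7% in Con. How often sums over other genes do not overlap was not computed, so this is a description.

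**Figure D1:**
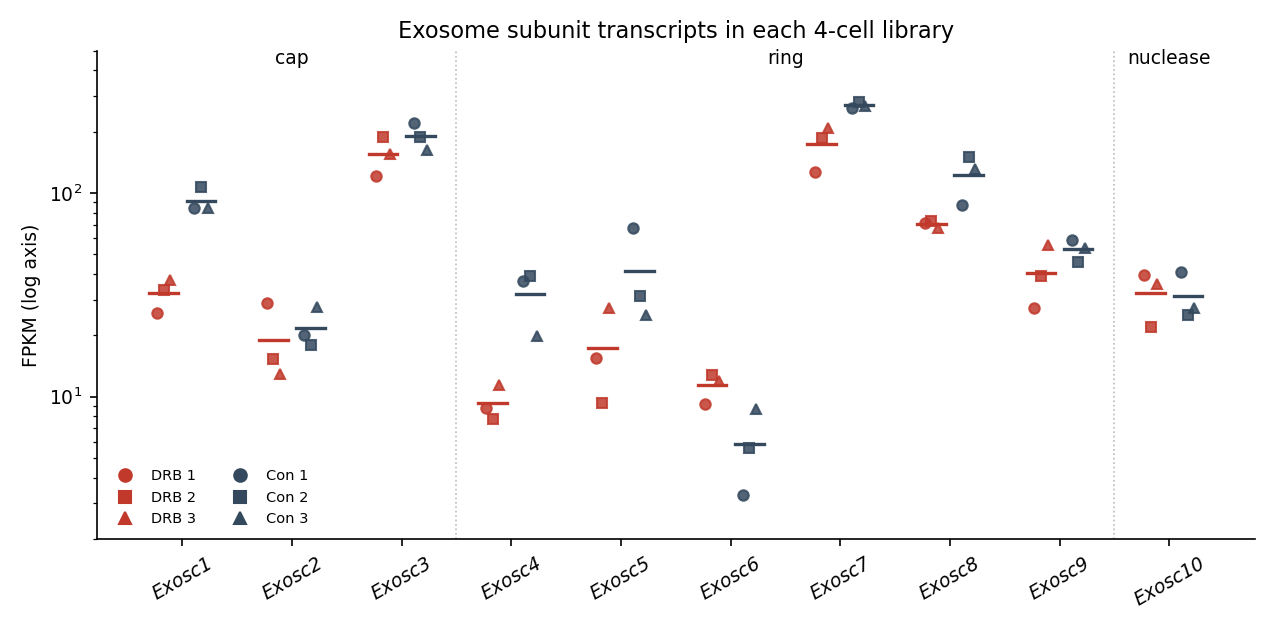
FPKM on a log axis of each exosome subunit in the 3 DRB libraries (red, left) and the 3 Con libraries (dark, right), with a marker shape per replicate number and a line at the group mean. Exosc1, Exosc4, Exosc7 and Exosc8 have all DRB points below all Con points, Exosc6 has them above, and the points of the other 5 subunits overlap.

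Among the cap proteins the change was uneven. Exosc1, the cap protein known in yeast as Csl4, is encoded on chromosome 19 (41922292 to 41933423, minus strand, GRCm38, the assembly also called mm10). It had 25.9, 33.3 and 37.6 FPKM in DRB replicates 1 to 3, against 84.5, 107 and 84.2 FPKM in Con replicates 1 to 3. The 2 groups were far apart, with no DRB library near the Con range. Its log2 fold change was -1.49 ± 0.28 (SE, limma adjusted p 0.0236, lower in 3 of 3 DRB libraries), and over all 14 alternative settings it ran from -1.60 to -1.34. The call was lost under 7 of the 14, among them no filter on low values (adjusted p 0.142).

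Exosc2, the cap protein called Rrp4 in yeast (chromosome 2, 31670715 to 31681349, plus strand), had 28.9, 15.4 and 12.9 FPKM in DRB replicates 1 to 3, against 20, 17.9 and 27.6 FPKM in Con replicates 1 to 3. The groups overlapped, with DRB replicate 1 above every Con library. On the log2 scale it differed by -0.25 ± 0.38, with a 95% interval of -1.08 to 0.59, which takes in changes in either direction. Exosc3, called Rrp40 in yeast (chromosome 4, 45316613 to 45342732, minus strand), the most abundant cap transcript, had 121, 189 and 156 FPKM in DRB replicates 1 to 3, against 221, 189 and 163 FPKM in Con replicates 1 to 3. DRB replicate 2 matched Con replicate 2 to within 1 FPKM. Its log2 fold change was -0.31 ± 0.27, with a 95% interval of -0.90 to 0.29. Neither Exosc2 nor Exosc3 was called, and whether the cap genes differ from each other in response was not tested.

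The promoters of the cap genes with the largest and the smallest fold change, Exosc1 and Exosc2, are shown so that the start of a called and of an uncalled gene of the same part of the complex can be compared. RefSeq sequences (GRCm38.p6, 250 bases before to 50 after the start) matched 8 of the 10 subunits. The ring genes with the largest and the smallest absolute fold change were Exosc4 and Exosc9. Capitals mark exact matches on either strand to the CCAAT box (CCAAT), the GC box (GGGCGG), the ETS core (CCGGAAG) or the TATA box (TATAAA).
Exosc1, chr19:41933265-41933564, minus strand: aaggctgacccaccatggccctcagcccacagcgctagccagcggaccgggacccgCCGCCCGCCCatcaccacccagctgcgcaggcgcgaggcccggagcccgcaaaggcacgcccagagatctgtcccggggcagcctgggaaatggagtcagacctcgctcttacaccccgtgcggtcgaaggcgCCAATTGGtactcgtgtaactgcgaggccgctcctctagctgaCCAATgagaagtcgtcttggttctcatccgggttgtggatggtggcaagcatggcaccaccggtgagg
Exosc2, chr2:31670465-31670764, plus strand: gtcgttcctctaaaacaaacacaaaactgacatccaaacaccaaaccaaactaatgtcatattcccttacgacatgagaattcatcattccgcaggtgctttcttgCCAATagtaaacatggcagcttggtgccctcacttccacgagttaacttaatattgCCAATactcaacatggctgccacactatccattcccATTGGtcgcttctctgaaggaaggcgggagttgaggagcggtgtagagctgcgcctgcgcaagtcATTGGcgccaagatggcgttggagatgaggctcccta

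The Exosc1 window held 24 CpG pairs and 65.7% G and C, with 3 CCAAT matches, 2 of which overlap each other on opposite strands, and 2 overlapping GC boxes. The Exosc2 window held 11 CpG pairs and 48% G and C, with 4 CCAAT matches and 0 GC boxes. The median over 32851 promoter windows of the same length was 7 CpG pairs and 52.7% G and C. Of the 8 matched subunits, 3 held a CCAAT match (Exosc1, Exosc2 and Exosc5) and 6 a GC box, against 37.4% and 35.7% of all windows. An ETS core was found in 2 (Exosc3 and Exosc10) and a TATA box in 0, against 8.86% and 13.6% of all windows. Exosc10 had separate windows, with the GC box and the ETS core in different ones. A subunit was counted if any of its windows matched, whereas the background counts windows, whether or not their genes were tested. The shares are therefore not like for like. A match is a description of the letters and was not related to the response.

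In the ring, Exosc4 fell, and the other 5 genes were not called. Exosc4, Rrp41 in yeast (chromosome 15, 76327397 to 76330677, plus strand), had 8.85, 7.79 and 11.4 FPKM in DRB replicates 1 to 3, against 37.2, 39.1 and 19.9 FPKM in Con replicates 1 to 3. Con replicate 3 was the lowest of its group and still above all DRB libraries. The log2 fold change was -1.63 ± 0.37 (SE, limma adjusted p 0.045, lower in 3 of 3 DRB libraries). The call was close to the threshold and was lost under 13 of 14 alternative settings, in which the fold change stayed between -1.94 and -1.42. After removal of a GC trend, it was -1.42 (adjusted p 0.0641), and with mitochondrial genes left out -1.51 (adjusted p 0.0614).

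Exosc9, Rrp45 in yeast and the partner of Exosc4 in the ring (chromosome 3, 36552606 to 36565727, plus strand), had 27.4, 39.3 and 55.4 FPKM in DRB replicates 1 to 3, against 59.1, 46.1 and 53.6 FPKM in Con replicates 1 to 3. The groups overlapped through DRB replicate 3, and the log2 fold change of -0.42 ± 0.32 was not called (adjusted p 0.542). The ratio of Exosc4 to Exosc9 was 0.323, 0.198 and 0.206 in DRB replicates 1 to 3, against 0.63, 0.849 and 0.371 in Con replicates 1 to 3. A ratio within a library does not depend on how libraries are scaled. The groups did not overlap here, but how often ratios of other gene pairs do so was not computed, so this is a description. The 3′ end of Exosc9 overlaps Ccna2, the cyclin A2 gene on the other strand, over 510 of 4709 annotated exon bases. Ccna2 was at 695, 499.9 and 477 FPKM in DRB and 449, 527 and 503 FPKM in Con, and the labels do not say that the libraries keep the strand, so its reads in the overlap cannot be told apart from those of Exosc9.

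Exosc8, Rrp43 in yeast (chromosome 3, 54728678 to 54735393, minus strand), had 71.5, 73.4 and 67.1 FPKM in DRB replicates 1 to 3, against 87.1, 149.6 and 132 FPKM in Con replicates 1 to 3. The DRB libraries lay within 7 FPKM of each other, below a wide range in Con, and the log2 fold change was -0.75 ± 0.28 (adjusted p 0.193). Exosc6, another ring protein, Mtr3 in yeast (chromosome 8, 111056339 to 111057664, plus strand), went the other way, with 9.25, 12.8 and 12 FPKM in DRB replicates 1 to 3, against 3.3, 5.63 and 8.71 FPKM in Con replicates 1 to 3. The log2 fold change of 0.91 ± 0.42 was not called (adjusted p 0.278) and was 0.61 without Con replicate 1, the lowest library. The ratio of Exosc8 to Exosc6 was 7.73, 5.72 and 5.59 in DRB, against 26.4, 26.6 and 15.1 in Con. All DRB ratios were below all Con ratios, a difference that was not tested. It rests on the levels of both genes, and so in part on that of Exosc6.

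The value of Exosc6 is uncertain because the gene has a single exon, and all 1326 of its bases lie inside an exon of 1 of the 7 annotated transcripts of Aars, the cytosolic alanyl-tRNA synthetase gene, on the same strand and outside its coding part. Fragments from this stretch cannot be told apart by position. Aars had 7.5, 4.14 and 4.96 FPKM in DRB replicates 1 to 3, against 12.8, 9.23 and 8.77 FPKM in Con replicates 1 to 3. Aars was thus below Con in every DRB library, where Exosc6 was above it, with log2 fold changes of -0.80 ± 0.39 and 0.91 ± 0.42, neither of them called. How the deposited values divide the shared fragments was not tested.

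Exosc7, Rrp42 in yeast (chromosome 9, 123113215 to 123136129, plus strand), had 127, 186 and 208 FPKM in DRB replicates 1 to 3, against 260.3, 279.7 and 268 FPKM in Con replicates 1 to 3. The Con libraries were close together, and DRB replicate 1 was the lowest of all 6. Its log2 fold change was -0.66 ± 0.27 (adjusted p 0.22) and -0.45 without DRB replicate 1. Exosc5, Rrp46 in yeast (chromosome 7, 25659164 to 25671368, plus strand), had 15.5, 9.29 and 27.4 FPKM in DRB replicates 1 to 3, against 67.6, 31.2 and 25.3 FPKM in Con replicates 1 to 3. Here DRB replicate 3 exceeded Con replicate 3. The log2 fold change of -1.20 ± 0.46 (adjusted p 0.202) rested in part on Con replicate 1 and was -0.79 without it. The ratio of Exosc7 to Exosc5 was 8.2, 20 and 7.58 in DRB, against 3.85, 8.96 and 10.6 in Con, and overlapped.

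**Figure D2:**
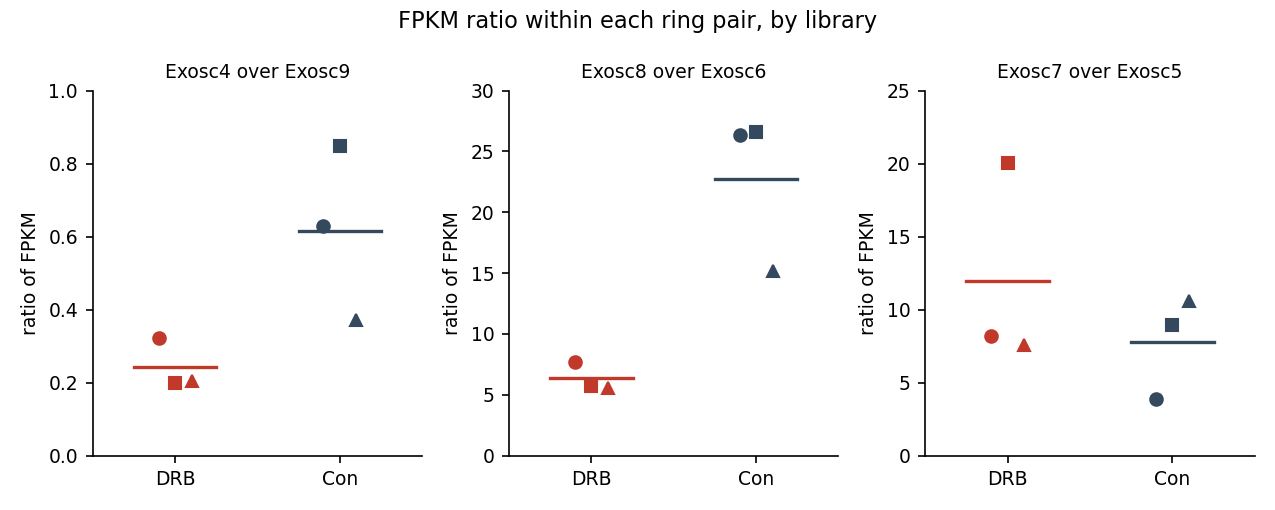
FPKM ratio within each of 3 pairs of ring subunits, not all of them neighbours in the ring, for the 3 DRB libraries (red, left) and the 3 Con libraries (dark, right). Each replicate number has its own marker shape, and a line marks the group mean. The ratios of Exosc4 to Exosc9 and of Exosc8 to Exosc6 are lower in all DRB libraries, and those of Exosc7 to Exosc5 overlap.

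Exosc10, the nuclear nuclease called Rrp6 in yeast (chromosome 4, 148558429 to 148582401, plus strand), had 39.6, 21.9 and 35.9 FPKM in DRB replicates 1 to 3, against 40.8, 25.2 and 27.3 FPKM in Con replicates 1 to 3. The groups overlapped over most of their range. Its log2 fold change was 0.05 ± 0.34 (adjusted p 0.961), its 95% interval of -0.71 to 0.80 leaves room for a change in either direction, and its sign turned negative without DRB replicate 1, DRB replicate 3, Con replicate 2 or Con replicate 3.

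**Figure D3:**
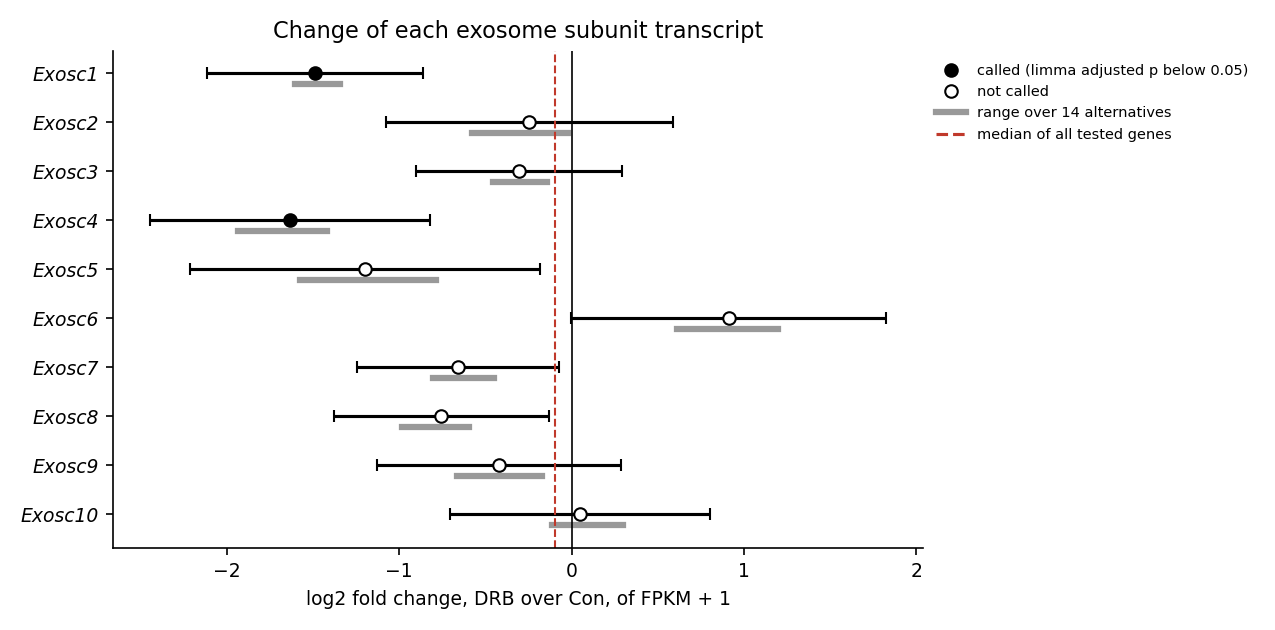
Log2 fold change of FPKM + 1, DRB over Con, for each subunit with its 95% interval from limma, filled where called, and below it a grey bar for the range over the 14 alternative settings. Exosc1 and Exosc4 are filled, at -1.49 and -1.63. The dashed line is the median of all tested genes, -0.09.

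The order of the levels, per length, was led in both groups by Exosc7, Exosc3 and Exosc8. In DRB embryos Exosc7 averaged 174 ± 41.8 FPKM and Exosc3 156 ± 33.9 FPKM and their ranges overlapped, whereas in Con embryos Exosc7, at 269 ± 9.80 FPKM, lay above Exosc3, at 191 ± 29.2 FPKM, in every library (SD, n = 3 per group). Exosc7 and Exosc3 together took 52.3%, 63.8% and 58.4% of the summed FPKM in DRB replicates 1 to 3, against 54.7%, 52.7% and 53.2% in Con replicates 1 to 3, and overlapped. Exosc1 was the fourth in Con, where its range overlapped that of Exosc8, the third, and lay above Exosc9 in every library. In DRB it was the sixth and overlapped both Exosc10 and Exosc2 as its neighbours. Exosc4 was the lowest in DRB, its range overlapping that of Exosc6, and the seventh in Con, where Exosc6 was the lowest and lay under Exosc2 in every library. The ratio of the highest to the lowest subunit was 14.4, 24.3 and 18.3 in DRB and 78.9, 49.7 and 30.8 in Con. The groups did not overlap in this ratio, which takes in the uncertain level of Exosc6 in every Con library.

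The subunits also differed in how closely they followed their common profile. The root-mean-square distance of log2(FPKM + 1) to the mean profile of the 10 genes, each centred on its own mean over the 6 libraries, was lowest for Exosc7, at 0.18, Exosc9, at 0.25, and Exosc3, at 0.26. It was highest for Exosc6, at 0.84. Among 3232 other genes that averaged 20 FPKM or more, the 5 with the smallest distance to that mean profile were Rpl9, a protein of the large ribosomal subunit, Xylb, a xylulose kinase, Atp23, a mitochondrial metallopeptidase, Sugt1, a cochaperone of Hsp90, and Zc3h8, a zinc-finger protein, at distances of 0.054 to 0.080 over 6 libraries. Rpl9 stood at 1605, 1629 and 1823 FPKM in DRB and at 2469, 2409 and 2242 FPKM in Con. These 5 were picked for following a profile that is itself lower in every DRB library, so their direction was fixed by the choice, and 0 of them were called by limma in the fit over all genes.

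Of 5 further nucleases and proteins bound to the core, 4 had a positive fold change, the median was 0.30, and 0 were called in limma (1 higher and 0 lower at an unadjusted p below 0.05). C1d, a nuclear cofactor of the Exosc10 module, had 215, 322 and 273 FPKM in the DRB libraries, against 128, 185 and 156 FPKM in Con, higher in every DRB library but not called (log2 fold change 0.78 ± 0.27, adjusted p 0.157). Mphosph6, another cofactor of that module, overlapped between the groups, with 137, 317 and 254 FPKM in DRB and 220.3, 334 and 246 FPKM in Con. Mtrex, the helicase that feeds RNA into the nuclear exosome, had 116, 58 and 57.5 FPKM in DRB and 55.6, 56.6 and 69.5 FPKM in Con, with DRB replicate 1 apart from the other 5. Dis3, the main catalytic subunit, had 126, 56.2 and 49.8 FPKM in DRB and 45.8, 53.4 and 76.1 FPKM in Con, also with DRB replicate 1 highest (log2 fold change 0.30 ± 0.38). Dis3 was chosen for mention after its values were seen.

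Of 14 tested nuclear adaptor genes, 8 had a positive fold change and the median was 0.09. In limma 1 rose, beside 1.53% of all tested genes, and 0 fell, while at an unadjusted p below 0.05 there were 3 higher and 2 lower. For this and the other lists, 10.5% of all tested genes were lower at that unadjusted limma p. The share of all tested genes that was higher at it was not counted. The gene called was Pabpn1, the nuclear poly(A)-binding protein that links polyadenylated RNA to the exosome, with 1456, 1883 and 1457 FPKM in the DRB libraries, against 356, 733 and 362 FPKM in Con. All DRB libraries lay well above the highest Con library. The log2 fold change was 1.80 ± 0.31 (SE, limma adjusted p 0.0168), and it was called in 3 of the 6 fits that left out a library, with adjusted p-values of 0.0114 to 0.0721. The cap-binding proteins Ncbp2 and Ncbp1, the most abundant after it, lay higher in every DRB library, with log2 fold changes of 0.53 ± 0.24 and 0.45 ± 0.27, and were not called. In the cytoplasm, 0 of 8 tested adaptor genes were called in limma (1 higher and 1 lower at an unadjusted p below 0.05), with a median of 0.03. Wdr61, a subunit of the SKI complex that delivers RNA to the cytoplasmic exosome, had 78.1, 148 and 149.6 FPKM in the DRB libraries, against 247, 277 and 220.3 FPKM in Con, lower in every DRB library (log2 fold change -1.03 ± 0.30, adjusted p 0.103). Zfp36l2, which binds AU-rich elements, had 30.3, 16 and 15.5 FPKM in the DRB libraries, against 4.17, 11 and 4.63 FPKM in Con (log2 fold change 1.55 ± 0.45, adjusted p 0.0961). Ythdf2, a reader of methylated adenosine, overlapped, at 326, 359 and 403 FPKM in DRB and 214, 399 and 420.2 FPKM in Con.

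Of 20 tested genes of other exonucleases and decapping, 5 had a positive fold change, the median was -0.26, and 0 were called in limma (0 higher and 1 lower at an unadjusted p below 0.05). The most abundant were Rexo4, Xrn2, the nuclear 5′ exonuclease, and Isg20l2, with log2 fold changes of -0.27 ± 0.34, -0.13 ± 0.29 and 0.01 ± 0.36. Whether the core subunits differ from these lists was not tested.

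**Figure D4:**
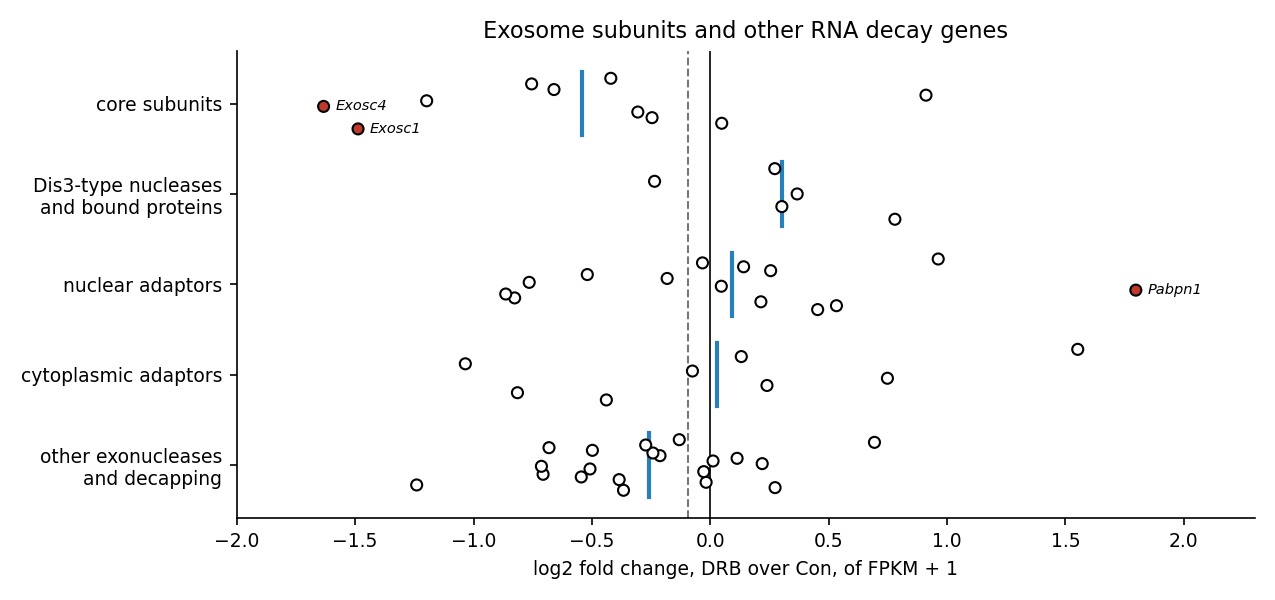
Log2 fold change of FPKM + 1, DRB over Con, of each tested gene in the exosome core and 4 lists of other RNA decay genes, as points, red and named where called, with a blue bar at each list's median and a dashed line at the median of all tested genes. The medians are -0.54 for the core, then 0.30, 0.09, 0.03 and -0.26.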

How the data were processed

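Smart-Seq2 cDNA from 4-cell embryos, primed with oligo-dT and amplified by PCR, was sequenced as paired ends, per the labels' protocols. The submitters' processing notes name cutadapt 1.16, STAR and the mm10 build; the quantifier and annotation were not given in the sources used here. Each library has 1 deposited file with FPKM for every gene to 2 decimals, per the file headers, and FPKM falls for all other genes when abundant transcripts rise. Gene positions come from GENCODE M21 (GRCm38).

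The 11893 genes that reached 1 FPKM in 3 or more of the 6 libraries entered a limma fit (version 3.58.1, R 4.3.3) of log2(FPKM + 1) on group alone, using a mean-variance trend; p-values are two-sided and adjusted after Benjamini and Hochberg. The fit was tested on simulated data. Depth was estimated from low FPKM of genes with 1 transcript, which move in steps of 1 fragment: 74.5% to 82.7% of these values lay within 0.15 of a whole number. The depth and a length subtracted from each transcript were chosen to make this share largest, so the share is no separate check of the depth.

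The members, lists, tests and settings were chosen with earlier results of these data known. All 10 subunits are named, and of each other list every called gene and the 3 most abundant. The alternatives were a pseudocount of 0.1, no filter, a minimum of 5 FPKM, the replicate number as a block, median-of-ratios scaling, mitochondrial genes left out, and each library left out in turn. Upper-quartile scaling and removal of a GC trend were chosen after seeing the data. Other steps used Python 3.11.15, pandas 2.3.3 and matplotlib 3.10.9.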

Additional observations from a re-analysis of the deposited data

How the results depend on the processing

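All 10 subunits except Exosc10 kept the sign of their fold change under all 14 alternatives; that of Exosc10 ran from -0.11 to 0.30 when libraries were left out and was negative in 4 of these 6 fits. Exosc1 was called under 7 alternatives (adjusted p 0.0154 to 0.142 over all 14) and Exosc4 under 1, a minimum of 5 FPKM (0.0281 to 0.227), and no other subunit was called under any. The number of subunits called, 2 of 10, was 1 with a pseudocount of 0.1, with median-of-ratios scaling, with mitochondrial genes left out, with upper-quartile scaling and with a GC trend removed, and 0 with no filter on low values. Without 1 library it was 0 to 1. The number of genes called, 295, was 164 with a pseudocount of 0.1, 6 with no filter on low values, where 27554 genes were tested, and 65 to 271 without 1 library. Leaving out DRB replicate 1 gave 65, DRB replicate 2 146, Con replicate 1 131, Con replicate 2 94 and Con replicate 3 69. The causes were not tested. The median over the subunits ran from -0.69 to -0.41, while leaving out mitochondrial genes moved the median of all genes by 0.11.

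With the replicate number as a block, 171 genes and 0 subunits were called (Exosc1 adjusted p 0.0524, Exosc4 0.0905). Between libraries that share a number, deviations from the group means had correlations of -0.051 to 0.053, so no pairing was seen, and what the numbers mark is not stated. With 3 libraries a group, small changes of single subunits may have been missed.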
